A study of Homo sapiens with 4 samples.

Results

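The mitochondrial ribosomal protein genes were taken as the protein-coding genes of GENCODE 44 whose symbol is MRPL (large subunit) or MRPS (small subunit) followed by a number and at most a letter from A to C, which gave 78 of 20046 protein-coding genes, on 21 chromosomes. The cells were HK1, an established nasopharyngeal carcinoma line, that overexpressed FLI1 with a Flag tag. An antibody to Flag was used for the precipitation, and it reads the introduced FLI1 and not the cell's own. Both groups carried the overexpressed FLI1, and they differed in treatment, PBS (the control) or the cytokine IFN-γ for 24 h. There was 1 ChIP-seq library per condition, so no difference between the conditions was tested, and no library from cells without Flag-FLI1 or from input chromatin was analysed here. The deposited lists held 30819 peaks for the control and 39654 peaks for IFN-γ, with median summit pileups of 16 and 22 fragments. A gene was counted as having a promoter peak if a peak overlapped the 3 kb either side of the transcription start site (TSS) of any of its transcripts.

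Mitochondria keep a ribosome of their own, which translates the few proteins encoded in mitochondrial DNA, all of them subunits of the respiratory chain and ATP synthase. Its RNAs come from mitochondrial DNA, whereas its proteins are encoded in the nucleus, made in the cytosol and imported. FLI1 is a transcription factor of the ETS family, whose members recognise a GGAA core. The promoters of nuclear genes for mitochondrial proteins are known for ETS sites, which are bound in many cell types by another family member, GABP, also named NRF-2. The ETS octamer searched here was CCGGAAGT or CAGGAAGT on either strand, and the shorter ETS hexamer, which CCGGAAGT contains, was CGGAAG.

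The sequences under the strongest promoter peaks are shown first, since the ETS octamer or hexamer at the summit went with the strength of the peak. Members were ordered by their mean rank over both libraries, in which rank 1 is the peak with the highest −log10 p of a list. Each stretch is GRCh38 sequence on the strand of the gene, from 75 bases before the control summit to at most 40 bases after it, and ends at most 30 bases into the transcript. The leading members that held the octamer were *MRPS34* (chr16:1773140-1773255, minus strand), *MRPL40* (chr22:19431707-19431822, plus strand), *MRPL3* (chr3:131502922-131503024, minus strand), *MRPL51* (chr12:6493335-6493450, minus strand), *MRPL27* (chr17:50373146-50373252, minus strand) and *MRPL24* (chr1:156741120-156741235, minus strand). All lie within 3 kb of a TSS of the member. The summit of *MRPL40* lies beside the TSS of *HIRA*, and that of *MRPL51* lies 113 bp upstream of its main TSS, inside the annotated span of the gene and nearest to a TSS of *NCAPD2*. Capitals mark the octamer on either strand, and the second octamer within 100 bp of the *MRPL3* summit lies outside the stretch.
MRPS34: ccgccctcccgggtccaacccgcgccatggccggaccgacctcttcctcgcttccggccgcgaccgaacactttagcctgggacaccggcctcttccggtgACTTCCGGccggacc
MRPL40: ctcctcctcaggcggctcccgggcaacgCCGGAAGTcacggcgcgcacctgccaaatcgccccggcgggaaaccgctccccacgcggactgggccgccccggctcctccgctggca
MRPL3: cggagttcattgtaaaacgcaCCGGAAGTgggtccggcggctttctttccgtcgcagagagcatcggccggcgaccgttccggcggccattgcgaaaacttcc
MRPL51: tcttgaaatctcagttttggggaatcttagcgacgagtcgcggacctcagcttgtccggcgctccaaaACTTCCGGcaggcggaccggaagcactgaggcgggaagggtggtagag
MRPL27: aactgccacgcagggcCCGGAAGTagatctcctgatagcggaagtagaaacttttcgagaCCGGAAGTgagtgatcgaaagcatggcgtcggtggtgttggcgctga
MRPL24: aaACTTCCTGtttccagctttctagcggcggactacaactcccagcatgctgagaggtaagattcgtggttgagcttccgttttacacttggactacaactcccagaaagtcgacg

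Sequences of leading members without the octamer are shown for *MRPS33* (chr7:141014985-141015100, minus strand), *MRPL23* (chr11:1947211-1947307, plus strand) and *MRPS31* (chr13:40771161-40771272, minus strand). *MRPL10* and *MRPL13*, which rank between *MRPS33* and *MRPL23*, and *MRPL12*, the next after *MRPS31*, are not printed. *MRPL12* and *MRPL13* held neither the octamer nor the hexamer within 100 bp of the summit. Each of the 3 stretches printed held the hexamer, which is in capitals, with its complement CTTCCG on the printed strand of *MRPS33*. The hexamers of *MRPS31* lie directly next to each other.
MRPS33: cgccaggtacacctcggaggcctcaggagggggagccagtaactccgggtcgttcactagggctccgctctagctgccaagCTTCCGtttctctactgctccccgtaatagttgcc
MRPL23: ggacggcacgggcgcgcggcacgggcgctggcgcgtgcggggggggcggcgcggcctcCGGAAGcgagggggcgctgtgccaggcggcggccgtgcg
MRPS31: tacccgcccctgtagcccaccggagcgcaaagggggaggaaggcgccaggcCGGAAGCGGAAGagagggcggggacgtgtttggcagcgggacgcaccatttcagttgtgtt

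Flag-FLI1 peaks were found at the promoters of most members. In the control library 73 of 78 members (93.6%) had a promoter peak, against 61.9% of all protein-coding genes. In the IFN-γ library 68 members (87.2%) had one, against 59.7%. The 68 members with a peak in IFN-γ all had one in the control as well, which is 87.2% against 56.0% of protein-coding genes. For 5 members (6.41%) a peak was listed for the control alone and for 0 members for IFN-γ alone, against 5.90% and 3.70% of protein-coding genes. A further 5 members (6.41%) had none in either list, against 34.4% of protein-coding genes. Members and protein-coding genes both had a median of 5 annotated TSSs, and the spread of that number was not compared. The protein-coding genes were not selected by expression in HK1, and the part of expression in these shares was not tested. Most members had a single promoter peak, 61 of 73 in the control and 55 of 68 in IFN-γ.

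The typical peak of a member was of a strength near that of other promoters, and a larger share of members than of protein-coding genes had a peak among the strongest of a list. Fold enrichment is the pileup at the summit over the local background, each with 1 added. The median fold enrichment of the strongest promoter peak was 12.7 in the control (quartiles 6.64 and 20.6), against 10.5 for protein-coding genes, a value inside the 95% order-statistic interval of the median over members (8.76 to 16.1). It was 9.35 in IFN-γ, against 9.12. The background at the summits, by which fold enrichment is divided, had a median of 1.36 fragments over all control peaks and 2.48 over all IFN-γ peaks, and its part in the lower IFN-γ folds was not tested. Of all 78 members, 26 (33.3%) had a peak among the top 10% of the control list, against 15.4% of protein-coding genes. The same was true of 21 members (26.9%) in the IFN-γ list, against 13.8%. These shares are over all genes, with or without a peak. Counted over genes with a peak, they were 26 of 73 members and 3078 of 12407 protein-coding genes in the control. In IFN-γ they were 21 of 68 and 2758 of 11967. The dot plot of fold enrichment by gene shows a wide range among the members, from 3.19 in *MRPL36* in IFN-γ to 67.2 in *MRPS33* in the control.

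**Figure D1:**
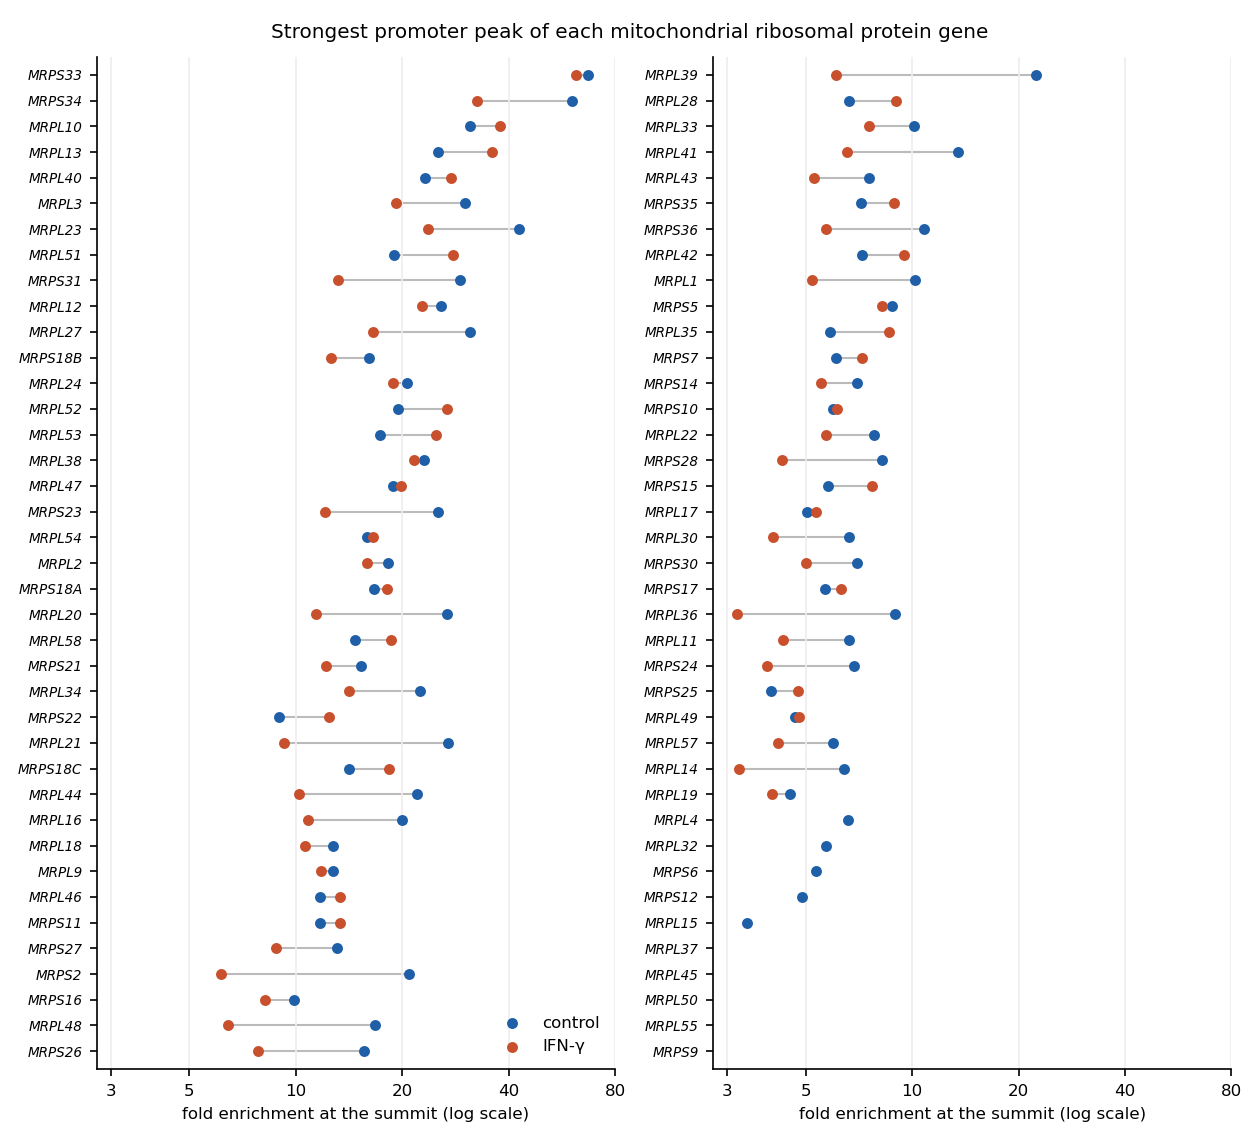
Fold enrichment at the summit of the strongest promoter peak (log scale) of the 78 members, ordered by mean rank over both libraries, with the control library in blue and the IFN-γ library in orange (1 library each, no error bars). *MRPS33* is highest in both libraries at 67.2 and 62.1, 5 genes have a control point only, and the last 5 have no point because no peak was listed.

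By mean rank over both libraries, the highest peaks belonged to a pair of small-subunit genes that are particular to the mitochondrial ribosome. *MRPS33* had a summit pileup of 137 fragments in the control and 186 in IFN-γ, with fold enrichments of 67.2 and 62.1. Its peak ranked 106 in the control and 155 in IFN-γ, the highest of all members in both. *MRPS34* had pileups of 140 and 135 fragments and fold enrichments of 60.3 and 32.5. It ranked 112 in the control and 603 in IFN-γ, where *MRPL13* (382) and *MRPL10* (514) ranked above it. The third small-subunit gene among the 10 highest members was *MRPS31*, with pileups of 66 and 101 fragments and fold enrichments of 29.1 and 13.2.

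The other 7 of the 10 highest members encode large-subunit proteins. *MRPL10* and *MRPL12* encode proteins of the stalk, the part of the large subunit that contacts translation factors. The pileup of *MRPL10* was 63 fragments in the control and 136 in IFN-γ, with fold enrichments of 31.1 and 37.7. The pileup of *MRPL12* was 58 and 78 fragments, with fold enrichments of 25.8 and 22.7. *MRPL3*, *MRPL13* and *MRPL23* encode counterparts of bacterial large-subunit proteins. Their fold enrichments were 30.2 and 19.2 for *MRPL3*, 25.2 and 35.8 for *MRPL13*, and 42.8 and 23.7 for *MRPL23*, with the control given first. *MRPL40* and *MRPL51* encode proteins without a bacterial counterpart, and their fold enrichments were 23.2 and 27.4, and 18.9 and 27.9. The summit of *MRPL40* lay 763 bp upstream of its nearest TSS in the control, and the peak cannot be told apart from one of the divergent gene *HIRA*, a histone chaperone gene.

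The 5 members with the lowest mean rank among those with a peak in both lists were *MRPL19*, *MRPL14*, *MRPL57*, *MRPL49* and *MRPS25*. Their control pileups were 9, 14, 13, 10 and 11 fragments, and their IFN-γ pileups were 12, 8, 12, 19 and 24 fragments. Fold enrichments stayed between 3.24 and 6.41 in these genes. The strongest peaks of *MRPS25* did not overlap, with summits 823 bp downstream of its main TSS in the control and 13566 bp downstream of it in IFN-γ. The IFN-γ summit lay 1813 bp upstream of another annotated TSS of the gene. A pair of weaker IFN-γ peaks, of 13 and 11 fragments, overlapped the control peak.

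The 5 members with a peak in the control list only had between 9 and 21 fragments at the summit, set beside the median of 16 over that list. They were *MRPL4*, *MRPL15*, *MRPL32*, *MRPS6* and *MRPS12*, the last of which encodes the protein next to the decoding centre of the small subunit. *MRPL4* had a control pileup of 21 fragments and a fold enrichment of 6.58, the highest of the 5. *MRPL32* had 11 fragments and a fold enrichment of 5.69, *MRPS6* had 11 and 5.35, *MRPS12* had 9 and 4.87, and *MRPL15* had 9 and 3.41. The summit of *MRPS12* lay 1500 bp downstream of its nearest TSS, and the others lay within 132 bp of theirs. At the relative depth of the libraries and the median ratio of promoter peaks given below, these pileups would correspond to between 11.1 and 26.0 fragments in IFN-γ. The lowest pileup in that list was 7 fragments. A call also depends on the local background, which the IFN-γ list does not give at these sites. The comparison therefore does not show that a peak would have been listed. No IFN-γ peak overlapped any of the 5 control peaks. A site under the calling threshold is not shown to be unbound. All 5 encode counterparts of bacterial ribosomal proteins, a class that held 47 of all 78 members.

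The 5 members without a promoter peak were *MRPL37*, *MRPL45*, *MRPL50*, *MRPL55* and *MRPS9*. *MRPL45* encodes a protein at the exit of the peptide tunnel that helps to hold the ribosome at the inner membrane. Its nearest peak lay 54.4 kb away in both libraries, nearest to *SOCS7*. The nearest peak of *MRPL55* lay 4.68 kb away in the control and 20.1 kb away in IFN-γ, and that of *MRPL37* lay 7.34 kb and 10.9 kb away. The control peak of *MRPL37* lay inside the annotated span of the gene. These distances are to the nearest annotated TSS of the gene and not to its main TSS alone. For *MRPL50* the distance was 135 kb in both libraries, and for *MRPS9* it was 238 kb in the control and 87.6 kb in IFN-γ. The promoters of these 5 genes, taken from 250 bp upstream to 50 bp downstream of the main TSS, held the ETS octamer and the hexamer in 0 of 5 cases. In the 73 members with a peak the same windows held the octamer in 13 (17.8%) and the hexamer in 38 (52.1%). In protein-coding genes with a peak the octamer was in 11.8% of these windows and the hexamer in 32.9%. Of the 6897 without a peak, 249 (3.61%) held the octamer and 758 the hexamer, so few matches would be found in 5 windows. The letters in a window are a description and say nothing of whether a factor can bind there.

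The large and the small subunit had promoter peaks at like rates, and the spread of their peak strengths overlapped widely. Of 51 large-subunit members, in which *MRPS18A* and *MRPS30* were counted because their proteins sit in the large subunit, 47 had a peak in the control and 44 in IFN-γ. Of the 27 other MRPS members, counted in the small subunit by symbol alone, 26 and 24 had one. The median fold enrichment was 14.7 in the control and 10.7 in IFN-γ for the large subunit, and 9.41 and 8.19 for the small subunit. Quartiles in the control were 6.82 and 22.2 for the large subunit and 6.29 and 15.5 for the small subunit. In IFN-γ they were 5.61 and 18.9, and 6.12 and 12.4. A difference in strength between the subunits was not tested. The octamer was within 100 bp of the summit in 12 of 47 large-subunit members and 2 of 26 small-subunit members in the control, and in 13 of 44 and 2 of 24 in IFN-γ. The small-subunit members with the octamer were *MRPS22* and *MRPS34*.

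Members were also divided by whether the protein has a counterpart in the bacterial ribosome. Of 47 members with a counterpart, 46 had a promoter peak in the control and 41 in IFN-γ, with median fold enrichments of 9.99 and 8.99. Of 30 members particular to mitochondria, 27 had a peak in each library, with medians of 15.6 and 10.2. *MRPL55* was left unclassified. The octamer was at the summit of 6 of 46 members with a counterpart and 8 of 27 members particular to mitochondria in the control. These divisions overlap and the groups are small, so the values are given as a description.

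Peak strength followed the ETS octamer and hexamer in both libraries, as it did over all promoters. In the control, 14 of 73 members (19.2%) had the octamer within 100 bp of the summit, against 16.9% of protein-coding genes with a peak, and the median fold enrichment of these 14 was 20.3. A further 23 members had the hexamer without the octamer and a median of 14.7, and the remaining 36 had neither and a median of 7.20. The medians over protein-coding genes in the same 3 classes were 17.5, 13.1 and 8.27. In IFN-γ, 15 of 68 members (22.1%) had the octamer, against 19.7%, with a median of 19.2. The medians were 11.8 in the 25 members with the hexamer only and 5.91 in the 28 with neither, and 15.0, 10.4 and 7.04 over protein-coding genes. In total the hexamer was at the summit of 50.7% of members with a peak in the control and 57.4% in IFN-γ, against 42.2% and 42.9% of protein-coding genes.

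**Figure D2:**
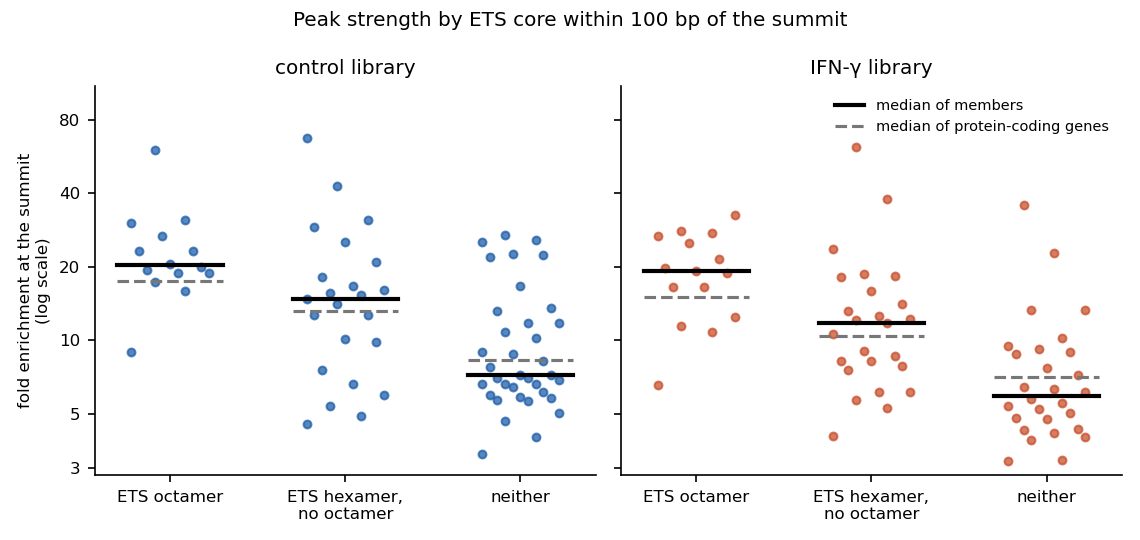
Fold enrichment at the summit (log scale) of the members with a promoter peak, by whether the 100 bp either side of the summit held the ETS octamer, the hexamer without the octamer, or neither. Points are genes, solid lines the medians of members (20.3, 14.7 and 7.20 in the control) and dashed lines the medians of all protein-coding genes with a promoter peak (17.5, 13.1 and 8.27).

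The 14 members with the octamer in the control all had it in IFN-γ as well. They were *MRPL3*, *MRPL16*, *MRPL20*, *MRPL24*, *MRPL27*, *MRPL38*, *MRPL40*, *MRPL47*, *MRPL51*, *MRPL52*, *MRPL53*, *MRPL54*, *MRPS22* and *MRPS34*. *MRPL41* was added in IFN-γ, where the summit lay elsewhere within an overlapping peak. Fold enrichments of the 14 in the control ran from 8.96 in *MRPS22* to 60.3 in *MRPS34*. CCGGAAGT was the octamer in 13 of the 14, and CAGGAAGT occurred in 2, *MRPL24* and *MRPL52*. Strong peaks with neither the octamer nor the hexamer were also seen. In the control these included *MRPL21* at 27.0, *MRPL12* at 25.8, *MRPL13* at 25.2, *MRPL34* at 22.5, *MRPL39* at 22.4 and *MRPL44* at 22.0, the last of which encodes a protein related to ribonuclease III. All of these genes held the bare GGAA core within 100 bp of the summit. So did 70 of 73 members (95.9%) in the control, against 94.8% of protein-coding genes with a peak.

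The octamers lay close to the summits. The density was 1.64 octamers per kb per member within 50 bp of the control summits and 0.822 from 50 to 100 bp, and it was 0.0913 from 100 to 250 bp. In IFN-γ the density was 2.21 within 50 bp and 0.294 from 50 to 100 bp, and it was 0.147 from 100 to 250 bp. In equally wide windows placed 1 kb to each side of the control summits, the sequence held the octamer in 3 of 146 cases (2.05%). The plot of octamers by distance shows this fall.

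Motifs of other factors were also counted at the summits. The motif GGGCGG of the SP family, which is common in GC-rich promoters, was within 100 bp of the summit in 43 members (58.9%) in the control and 37 (54.4%) in IFN-γ, more often than the ETS octamer and close to the hexamer. Its share over protein-coding genes was 58.8% and 49.4%. The motif CCAAT of NF-Y was at 10 members (13.7%) and 12 members (17.6%), against 16.4% and 17.9%, and the E-box CACGTG was at 3 members (4.11%) and 2 members (2.94%), against 7.08% and 6.34%. The motif ATGGCGGC of YY1, a factor known at many housekeeping promoters, was at 7 members (9.59%) in the control and 11 (16.2%) in IFN-γ, against 4.41% and 3.84% of protein-coding genes. The motif GCATGCGC of NRF1, a regulator of nuclear genes for mitochondrial proteins, was at 3 members (4.11%) and 4 members (5.88%), against 2.07% and 1.72%. The AP-1 motif TGANTCA was at 0 of 73 and 0 of 68 members, against 5.55% and 8.31% of protein-coding genes. Runs of 4 GGAA units were also at 0 members in both libraries, against 0.935% and 2.27%. All motifs were searched on both strands, and a match is a description of the sequence.

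The peaks of the members sat close to their TSSs. The summit of the strongest promoter peak lay a median of 34 bp from the nearest TSS of the member in the control, against 114 bp over protein-coding genes. In IFN-γ the median was 40 bp against 147 bp. Measured to the main TSS alone, the median was 62 bp in both libraries, against 224 bp and 292 bp. Summits were within 200 bp of a TSS in 83.6% of members in the control and 88.2% in IFN-γ, against 63.2% and 56.6%. In the control 48 summits were upstream of the nearest TSS and 25 were at or downstream of it. Summits lay over 1000 bp from the nearest TSS of the member in 3 members in the control and 4 in IFN-γ. The farthest in the control was that of *MRPL22*, 2802 bp upstream and closest to a TSS of *GEMIN5*. In IFN-γ it was that of *MRPL35*, 3742 bp upstream and closest to a TSS of *IMMT*. The control summit of *MRPL2* lay 1761 bp downstream of its nearest TSS and closest to a TSS of *CUL7*, a ubiquitin ligase scaffold gene.

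**Figure D3:**
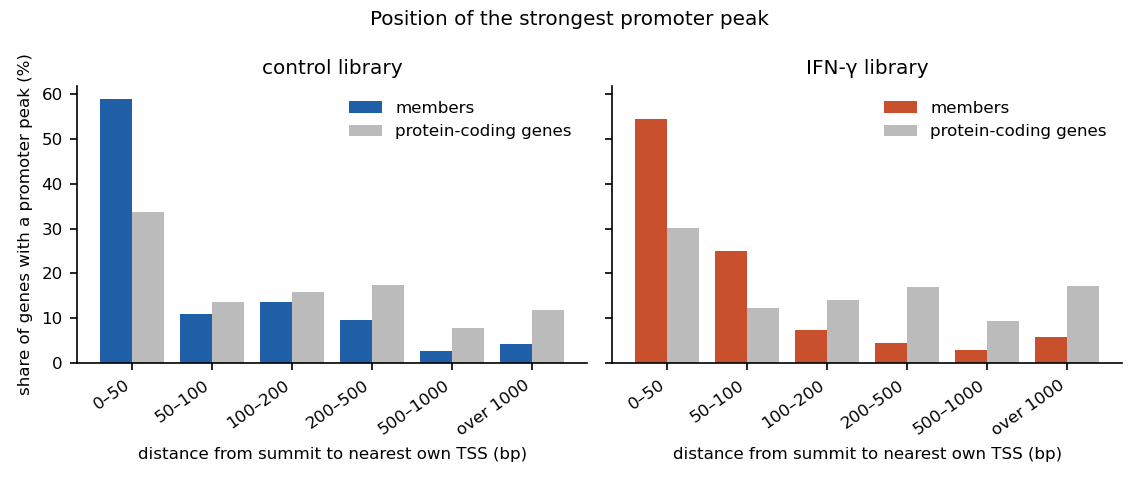
Distance from the summit of the strongest promoter peak to the nearest TSS of the same gene, as a share of the genes with a promoter peak in that library, for members (coloured bars) and all protein-coding genes (grey bars). Within 50 bp lie 58.9% of members in the control and 54.4% in IFN-γ, against 33.7% and 30.2% of protein-coding genes.

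Members often shared their promoter with another gene. A protein-coding gene on the other strand started within 1 kb upstream of the main TSS in 26 members (33.3%), against 9.46% of protein-coding genes. At 300 bp the count was 18 (23.1%), against 6.02%. The partners included genes with mitochondrial products, *NDUFB5* (a subunit of complex I) beside *MRPL47*, *TWNK* (the mitochondrial DNA helicase) beside *MRPL43* and *SARS2* (the mitochondrial seryl-tRNA synthetase) beside *MRPS12*. *MRPS11* and *MRPL46* were partners of each other, with TSSs 320 bp apart, and a single peak served both, with pileups of 25 and 41 fragments and fold enrichments of 11.7 and 13.3. Of the 26 members with a partner, 24 had a peak in the control and 22 in IFN-γ, and their median fold enrichment was 13.6 in the control against 10.2 in members without one. The nearest TSS to the control summit belonged to another gene for 18 of 73 members, and for 13 of 68 in IFN-γ. A peak between divergent genes cannot be assigned to either of them. When each peak counted only for the gene of the nearest TSS, 60 members kept a peak in the control (76.9%, against 50.7% of protein-coding genes) and 57 in IFN-γ (73.1%, against 48.8%).

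The summit pileups of the 2 libraries were compared in the 62 members whose strongest peaks overlapped. The libraries differed in depth by a factor of 1.46, IFN-γ over control, as estimated from the lowest background of each list. After scaling for depth, the median ratio of IFN-γ to control pileup was 0.920 in the members (quartiles 0.706 and 1.13) and 0.850 over 9887 protein-coding promoter pairs (quartiles 0.687 and 1.08). When pileups were scaled so that the median of protein-coding pairs was 1, the median of the members was 1.08, so the side of 1 on which it fell depended on the scaling. Ratios over 1.28 or under 0.567, which are 1.5 times above and below the median of protein-coding pairs, were counted. Of the 62 members 9 were above (14.5%, against 13.2% of protein-coding pairs) and 5 below (8.06%, against 11.5%). These shares were near those of all promoters. Ranks of the pileups were similar between the libraries, with a Spearman correlation of 0.896 across the 62 genes and 0.856 across all protein-coding pairs. The genes are not independent replicates and share their libraries and their background.

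In 5 members the ratio was above 1.28 and its exact Clopper-Pearson 95% interval, which covers counting error only, lay above 0.850 (8.06%, against 9.14% of protein-coding pairs). *MRPL13* had 66 fragments in the control and 162 in IFN-γ, a ratio of 1.69 (1.26 to 2.28). *MRPL52* had 42 and 94 fragments and a ratio of 1.54 (1.06 to 2.27). *MRPL10* had 63 and 136 fragments and a ratio of 1.48 (1.09 to 2.03). In these 3 genes, which encode large-subunit proteins, the interval also lay above 1. *MRPS22*, with 44 and 86 fragments, had a ratio of 1.34 (0.923 to 1.98), and *MRPL51*, with 56 and 106 fragments, had a ratio of 1.30 (0.932 to 1.83).

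In 4 members the ratio was under 0.567 and its interval lay below 0.850 (6.45%, against 4.65% of protein-coding pairs). *MRPL39* had 47 fragments in the control and 31 in IFN-γ, a ratio of 0.453 (0.278 to 0.728). *MRPL41* had 35 and 24 fragments and a ratio of 0.471 (0.268 to 0.815), but its summits were 918 bp apart, so different positions were compared. *MRPL44* had 54 and 39 fragments and a ratio of 0.496 (0.320 to 0.763). *MRPL40* had 100 and 82 fragments and a ratio of 0.563 (0.415 to 0.762). *MRPL14* had the lowest ratio, 0.392, but with 14 and 8 fragments its interval of 0.143 to 1.00 held the median. With 1 library per condition, variation between cultures is not part of these intervals, and the ratios compare these libraries and not the treatments.

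**Figure D4:**
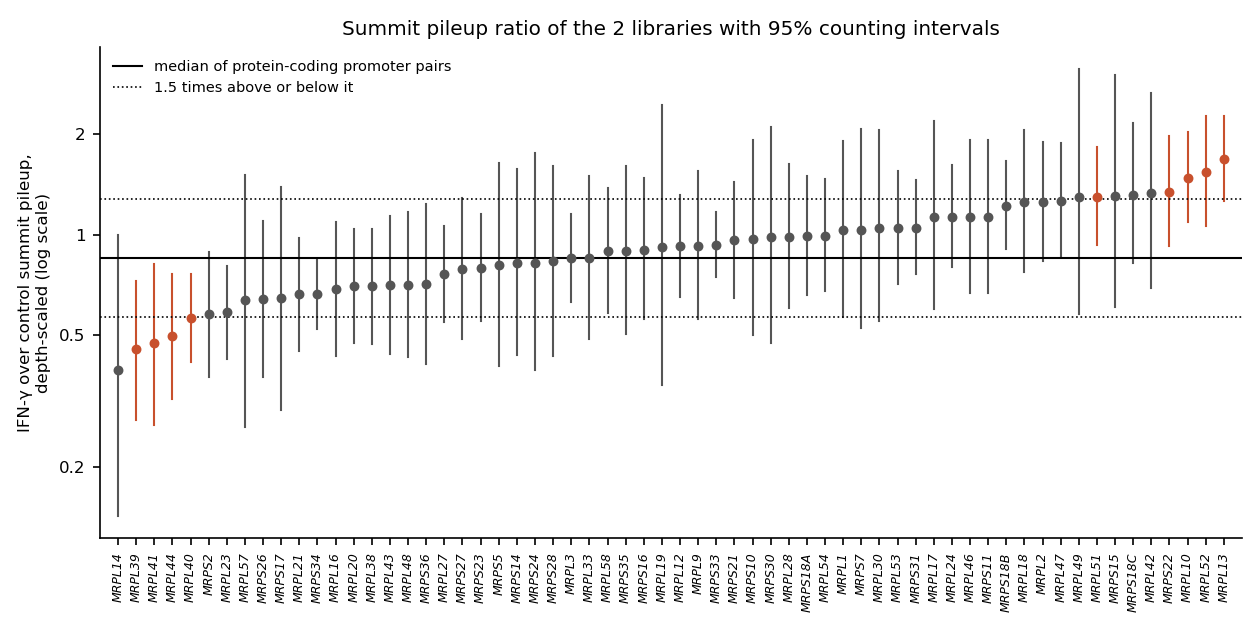
Depth-scaled ratio of IFN-γ to control summit pileup (log scale) in the 62 members with overlapping strongest peaks, with exact 95% intervals for counting error. The solid line is the median of protein-coding promoter pairs, 0.850, the dotted lines are 1.28 and 0.567, and orange marks the 5 members above and 4 members below whose interval excludes the solid line.

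Of the 43 other genes of mitochondrial translation, 39 (90.7%) had a promoter peak in the control, against 61.9% of protein-coding genes. In IFN-γ 38 (88.4%) had one, against 59.7%. Their median fold enrichments were 14.6 and 12.6. All 12 translation factor genes had a peak in both libraries. The highest was *GFM2*, a factor of ribosome recycling, with fold enrichments of 65.8 and 34.9, and *TUFM*, the mitochondrial elongation factor Tu, had 24.3 and 18.5. Of 20 genes for ribosome assembly and ribosomal RNA modification, 16 had a peak in each library and 15 in both. Their fold enrichments ran from 4.67 in *MPV17L2* to 66.1 in *MTG2* in the control. In IFN-γ they ran from 3.05 in *ERAL1* to 35.7 in *YBEY*. *MRM2*, a ribosomal RNA methyltransferase gene, had 45.3 and 20.2. *MPV17L2* had a peak in the control only and *RBFA* in IFN-γ only. *FASTKD2*, *MALSU1* and *DDX28* had none in either. The 5 mitochondrial ribosome proteins with other symbols had a peak in both libraries, from *AURKAIP1* at 37.0 and 52.5 and *DAP3* at 18.6 and 13.5 to *GADD45GIP1* at 5.09 and 3.50. Their median fold enrichments were 8.77 and 7.23, below the 10.5 and 9.12 of protein-coding genes. Of the 6 genes for mitochondrial transcription and RNA stability, 6 had a peak in the control and 5 in IFN-γ, with median fold enrichments of 14.4 and 13.8. In the control they ran from 3.77 in *LRPPRC*, which had no IFN-γ peak, to 26.9 in *TFAM*. *TFAM*, which packages mitochondrial DNA, had 15.7 in IFN-γ.

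Promoter peaks were about as frequent in cytosolic ribosomal protein genes as in the members in the control, and more frequent in IFN-γ. In respiratory chain genes they were less frequent than in the members in the control, and close to them in IFN-γ. Of 88 cytosolic ribosomal protein genes, 84 (95.5%) had a promoter peak in the control and 82 (93.2%) in IFN-γ, against 93.6% and 87.2% of members, with median fold enrichments of 16.5 and 16.3, both above those of the mitochondrial ribosomal protein genes. Of 84 nuclear genes for subunits of the respiratory chain and ATP synthase, 69 (82.1%) and 71 (84.5%) had one, with medians of 11.2 and 8.30. A divergent protein-coding neighbour was found for 15.9% of cytosolic ribosomal protein genes and 28.6% of respiratory chain genes, against 33.3% of mitochondrial ribosomal protein genes. No test of these differences was made. The lists were picked by gene symbol, and the part of their make-up in these differences was not tested.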

How the data were processed

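Flag ChIP-seq libraries of HK1 cells were analysed, 1 per condition, with groups taken from the labels, and the input libraries are not analysed here. The methods state that the authors used Cutadapt 1.18 for trimming, Bowtie2 2.3.4.1 for alignment to GRCh38, picard for duplicates and, for peak calling at a p-value cutoff of 0.01, MACS2 2.1.2. The lowest −log10 q in the deposited lists was 1.30. Whether the input entered the calling is not given in the sources used here. The authors deposited, for each peak, the fold enrichment (a ratio of pileup plus 1 to background plus 1), −log10 p-values and −log10 q-values, and a display score, which was not used.

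Each summit's pileup, as a whole number of fragments, and its background were solved from the deposited fold and −log10 p (relative error at most 6.21e-06). Lowest backgrounds were 1.06 and 1.54 fragments. These values set the precision of each ratio, and the lists give no read totals. Genes and TSSs came from GENCODE 44 and sequence from GRCh38, and peak coordinates were made 1-based. The main TSS was that of the MANE Select or Ensembl canonical transcript. The strongest promoter peak of a gene was that with the highest −log10 p, and an overlap needed 1 bp. Motifs were searched within 100 bp of a summit. No sequence of chromosome 8 was printed, and 1 further sequence and 1 motif are not reported here.

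The text names the 10 members with the highest and the 5 with the lowest mean rank, those with a peak in a single library or none, and those whose ratio differed from the median by over 1.5 times with an interval that excluded it. Other named members were chosen after their values were seen. The members and lists were chosen with earlier results of these data known. Alternatives were other windows, TSSs, assignments, q-value cutoffs, list lengths, scalings and motifs. With 1 library per condition no test was run. The pileup solution, promoter calls and motif search were tested on simulated data. The tools were samtools 1.23.1, pysam 0.24.0, pandas 2.3.3, scipy 1.17.1, numpy 2.4.6 and matplotlib 3.10.9 under Python 3.11.15.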

Additional observations from a re-analysis of the deposited data

How the results depend on the processing

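No paired analysis was possible because there was only 1 library in each condition, and for the same reason no replicate could be left out. The median ratio of IFN-γ to control pileup at member promoters changed side from 0.920 to 1.08 when pileups were scaled to the median of protein-coding pairs, which follows from the scaling itself. With the hexamer CGGAAG in place of the octamer, 37 members in the control and 39 in IFN-γ held the motif at the summit, since the hexamer is shorter. The other 33 values from alternatives kept their direction and stayed within 1.5 times of the reported count or within the 95% order-statistic interval of the reported median over members. Across windows, TSSs, assignments, q-value cutoffs and list lengths, members with a promoter peak numbered 60 to 73 in the control and 57 to 68 in IFN-γ. At a q-value under 1e-05 the control lost *MRPL15*, *MRPL19*, *MRPL49*, *MRPS12* and *MRPS25*, and with lists of equal length IFN-γ lost *MRPL14*, *MRPL19*, *MRPL36*, *MRPL57* and *MRPS24*. The median distance to the TSS rose from 34 bp in the control and 40 bp in IFN-γ to 62 bp in both with the main TSS. Pileups of 10 to 20 fragments give wide intervals, so ratios of the weaker members are not resolved at this depth.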

Other observations

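Peaks were also found inside the annotated spans of some members but outside the 3 kb windows around their TSSs. There were 15 such peaks in 6 genes in the control library and 12 in 6 genes in the IFN-γ library, and other genes that overlap these spans were not separated from them. The highest was in *MRPL23* at chr11:1978819-1979342, with 45 fragments and a fold enrichment of 19.7 in the control. A peak at chr11:1978760-1979373 in IFN-γ had 51 fragments and a fold enrichment of 9.91. In *MRPS22* a control peak at chr3:139299244-139299819 had 31 fragments and a fold enrichment of 12.3, and the IFN-γ peak there had 52 fragments and a fold enrichment of 10.1. In *MRPL33* a peak had 29 fragments in the control and 60 in IFN-γ, with fold enrichments of 12.3 and 12.5. The ETS octamer was within 100 bp of the summit of 0 of the 15 control peaks and 1 of the 12 IFN-γ peaks, and the AP-1 motif of 2 and 3 of them.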
